A study of Mus musculus with 46 samples.

Results

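Cyclin-dependent kinase inhibitors and target genes of the tumour suppressor p53 were followed through myocardial infarction in left ventricles of 2 inbred mouse strains, C57BL/6J (C57 below) and MRL/MpJ (MRL). The group was chosen by name and holds 10 genes: Cdkn1a, Cdkn1b, Cdkn1c, Cdkn2c, Trp53, Mdm2, Ccng1, Gadd45a, Gadd45b and Gadd45g. Probe sets that the platform annotation gives to 1 of these symbols alone represented 9 of them, with 16 probe sets, out of 12393 genes with such a probe set. Trp53 is not analysed here. Of the 16 probe sets, 14 covering all 9 genes passed the filter on dim probe sets, and 1 probe set each of Cdkn1b and Gadd45b did not.

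The 12 groups combined strain, day and region. All animals were male and 15 to 20 weeks old, with no transgene or drug named in the labels. Day 0 hearts came from healthy unoperated mice, and day 1 and day 5 hearts were taken that long after a suture had closed the left coronary artery. There was no sham group, so surgery and infarction cannot be told apart. Hearts were cut along the septum, and a biopsy punch separated the regions. Infarct samples held the infarct and its border, noninfarct samples the rest of the left ventricle, and day 0 "infarct" samples the anterior-apical tissue that an infarct would occupy. Each group had 4 Affymetrix MOE430A arrays, called biological replicates by the labels, except the 2 C57 day 0 groups with 3, for 46 arrays in all.

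Progress through the cell cycle depends on kinases that cyclins activate, and 2 families of small proteins hold these kinases back. Cdkn1a (p21), Cdkn1b (p27) and Cdkn1c (p57) bind several cyclin and kinase complexes, and Cdkn2c (p18) binds the kinases that drive early G1. The transcription factor p53 responds to DNA damage and other stress by raising Cdkn1a, Mdm2, Ccng1 and Gadd45a. Mdm2 in turn marks p53 for degradation, which closes a feedback loop. Gadd45a, Gadd45b and Gadd45g are related stress proteins that bind p21 and cell cycle kinases and activate the kinase upstream of p38 and JNK. Adult cardiomyocytes rarely divide, whereas leukocytes, fibroblasts and endothelial cells enter an infarct or divide in it. MRL mice are known for closing ear punch wounds, a trait that mice lacking Cdkn1a share.

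Values are log2 of the intensity per probe set that the authors deposited, with array medians of 4.22 to 4.48 on that scale. A change is a difference of group means of log2 intensity ± its standard error (SE), and a gene was called where limma gave an adjusted p under 0.05 over all probe sets tested. Because the samples are bulk tissue, fewer cells of a type and less RNA per cell cannot be told apart. The labels are at odds with the marker genes of 2 libraries. The library labelled C57 day 5 noninfarct replicate 3 had a summed macrophage marker intensity of 21380 against 2475 to 8972 in the others of its group. The library labelled MRL day 5 infarct replicate 3 had a summed cardiomyocyte marker intensity of 184400 against 59260 to 96100 in the others, and a macrophage sum of 4303 against 19840 to 26510. Both were kept as labelled, and day 5 results that change without them are given both ways. All 8 cardiomyocyte markers lay above the array median in every group, as the labelled tissue requires.

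The windows before the start sites of the genes that moved most on day 1 are printed below. The upstream window of the p53 target Cdkn1a differs from those of Gadd45b and Gadd45g in the motifs it holds. Each is the 250 bases before a RefSeq start site on GRCm38.p6, 5′ to 3′ on the gene's strand, with motif matches in capitals. Cdkn1a has 2 start sites 2790 bases apart, with windows at chr17:29090729-29090978 and chr17:29093519-29093768. Those of Gadd45b and Gadd45g lie at chr10:80929841-80930090 and chr13:51846425-51846674, and all 4 windows are on the plus strand.
Cdkn1a, upstream start: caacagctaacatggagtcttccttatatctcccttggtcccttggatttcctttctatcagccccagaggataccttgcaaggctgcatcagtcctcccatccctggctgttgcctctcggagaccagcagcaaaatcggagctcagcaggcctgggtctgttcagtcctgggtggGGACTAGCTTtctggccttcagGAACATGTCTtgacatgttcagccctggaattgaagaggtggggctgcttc
Cdkn1a, downstream start: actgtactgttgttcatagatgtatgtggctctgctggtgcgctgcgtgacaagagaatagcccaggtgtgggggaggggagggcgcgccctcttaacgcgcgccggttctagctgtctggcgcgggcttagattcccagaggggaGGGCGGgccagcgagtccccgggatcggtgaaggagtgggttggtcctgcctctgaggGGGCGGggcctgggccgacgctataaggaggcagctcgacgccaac
Gadd45b: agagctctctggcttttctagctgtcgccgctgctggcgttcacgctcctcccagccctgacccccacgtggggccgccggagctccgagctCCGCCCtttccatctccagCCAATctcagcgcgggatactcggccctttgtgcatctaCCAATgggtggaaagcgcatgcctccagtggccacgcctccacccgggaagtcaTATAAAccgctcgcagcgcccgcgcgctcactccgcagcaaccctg
Gadd45g: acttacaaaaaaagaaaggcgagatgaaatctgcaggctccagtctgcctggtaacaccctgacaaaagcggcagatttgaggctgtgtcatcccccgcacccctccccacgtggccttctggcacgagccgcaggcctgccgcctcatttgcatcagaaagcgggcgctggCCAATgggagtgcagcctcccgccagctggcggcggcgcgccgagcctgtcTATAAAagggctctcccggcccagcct

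The capitals in the upstream Cdkn1a window are a pair of p53 half-site matches, GGACTAGCTT at -73 to -64 and GAACATGTCT at -51 to -42, counted from the start site. The downstream Cdkn1a window, with 64.8% G and C against 54% upstream, held 2 GC boxes (GGGCGG) and no p53 half-site. In the Gadd45b window the capitals are a GC box on the other strand, the letters CCGCCC, with 2 CCAAT boxes and a TATA box (TATAAA) at -46 to -41. The Gadd45g window held a TATA box at -27 to -22 and 1 CCAAT box. Over the group, a start-site window was at hand for 9 genes, Trp53 included and Cdkn1c not. A p53 half-site was matched in the windows of 5 of the 9 (Cdkn1a, Trp53, Mdm2, Ccng1 and Gadd45a), against 7.13% of 32851 mouse windows of the same length. The corresponding numbers were 6 of 9 and 32.7% for the GC box, 7 of 9 and 33.8% for the CCAAT box, and 3 of 9 and 12.4% for the TATA box. The units differ, since the group is counted by gene, with 11 windows for its 9 genes, and the mouse share by single window. A gene with 2 windows had more room for a match. Neither an AP-1 site (TGANTCA, 6.75% of windows) nor a cyclic AMP response element (TGACGTCA, 1.55%) was matched in the 9 genes. The same held for a STAT site (TTCNNNGAA, 7.02%), an E2F site (TTTCCCGC, 0.895%), an NF-kB site (7.25%) and a serum response element (1.47%). All 10 motifs were searched on both strands, and no matches overlapped. A match describes letters in the window and not a bound site.

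The first question was how these genes change after infarction in each strain and region. In C57 infarct tissue 3 of the 9 genes rose by day 1 and none fell, where 9.39% of all probe sets tested rose and 6.16% fell. By day 5, 4 had risen and 2 had fallen, beside 23.4% and 19.3% of probe sets. The MRL counts in infarct tissue were 3 higher and 1 lower by day 1 (10.4% and 11.1% of probe sets), and 3 higher and 3 lower by day 5 (23.6% and 23.4%). The median change of the 9 genes on day 1 was -0.02 in C57 and 0.03 in MRL infarct tissue, beside 0.01 and -0.00 over all probe sets tested, so the group did not move as one. Cdkn1a, Gadd45b and Gadd45g rose on day 1 in both strains. By day 5 Cdkn2c had risen and Mdm2 and Ccng1 had fallen. The changes on day 1 and day 5 share their day 0 arrays.

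**Figure D1:**
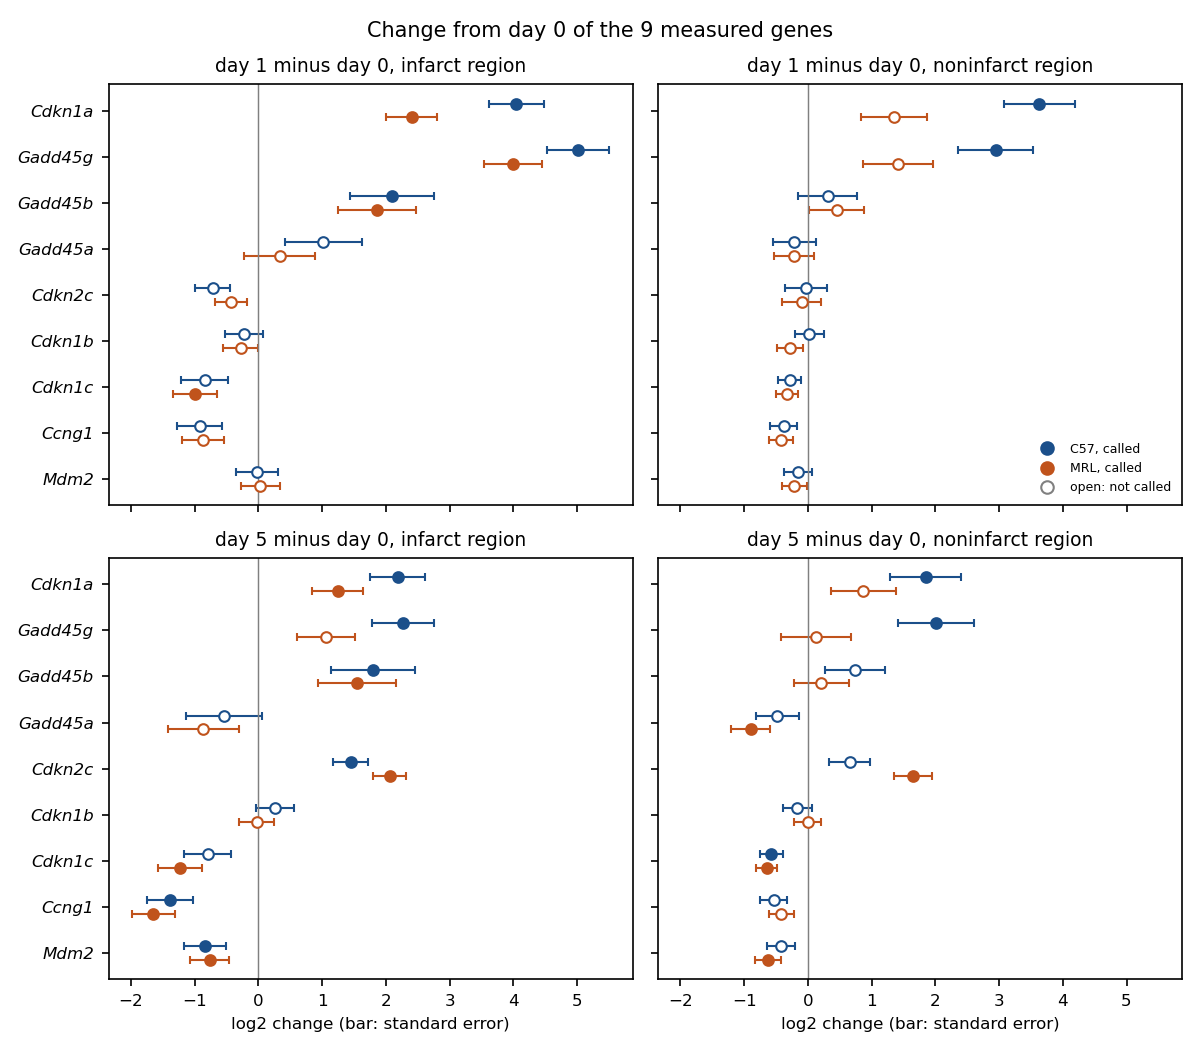
Change from day 0 (log2, x axis) of the 9 measured genes in infarct (left) and noninfarct tissue (right) on day 1 (top) and day 5 (bottom), in C57 (blue) and MRL (orange). Bars are standard errors and filled points are changes with a limma adjusted p under 0.05. Cdkn1a and Gadd45g lie farthest to the right on day 1, and on day 5 Cdkn2c lies to the right and Ccng1 to the left in infarct tissue.

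Cdkn1a, whose product arrests cells in G1, rose 16.5-fold in C57 and 5.29-fold in MRL infarct tissue by day 1. In C57 infarct tissue its log2 intensity was 6.69, 6.05 and 6.86 at day 0, 11.16, 10.50, 10.28 and 10.37 at day 1, and 8.45, 8.52, 8.56 and 9.33 at day 5. In MRL infarct tissue it was 7.10, 7.17, 7.89 and 6.67 at day 0, 8.23, 9.34, 10.97 and 9.89 at day 1, and 8.16, 8.41, 8.72 and 8.50 at day 5. The 3 days did not overlap in C57, whereas in MRL the lowest day 1 array lay within the day 5 range. The changes by day 1 came to 4.04 ± 0.43 for C57 (limma adjusted p = 2.37e-06) and 2.40 ± 0.40 for MRL (0.000328). By day 5 they were 2.18 ± 0.43 (0.000623) and 1.24 ± 0.40 (0.0146). The MRL value on day 5 was 1.06 with an adjusted p of 0.0534 without MRL day 0 infarct replicate 4. Between day 1 and day 5 Cdkn1a fell by 1.86 ± 0.40 in C57 (0.00152) and by 1.16 ± 0.40 in MRL (0.0342). The MRL decline lost its call in 5 of 8 omissions of 1 array (day 1 replicates 3 and 4, day 5 replicates 1, 2 and 4), with values of -1.18 to -0.70 and adjusted p of 0.065 to 0.143.

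**Figure D2:**
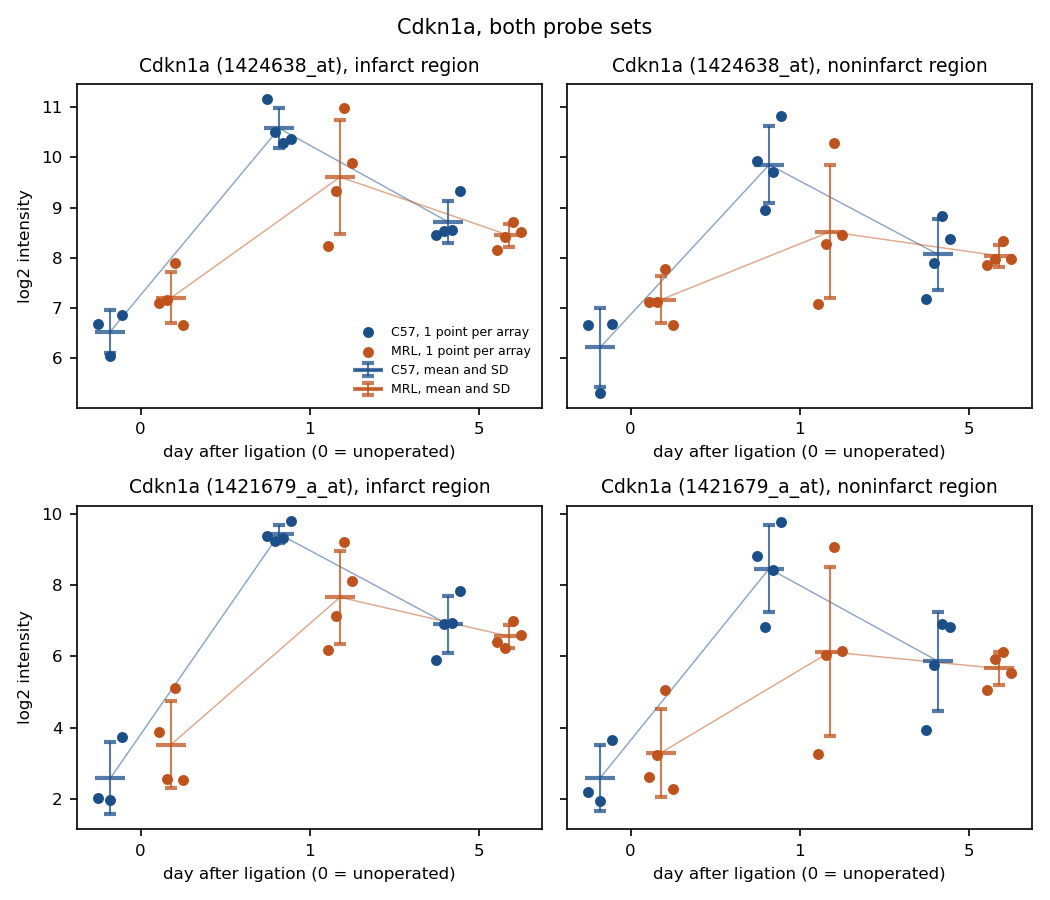
Log2 intensity of both Cdkn1a probe sets (y axis) by day after ligation (x axis) in infarct (left) and noninfarct tissue (right). Each point is 1 array of C57 (blue) or MRL (orange), with group mean and SD. C57 infarct tissue peaks on day 1 at 10.58 ± 0.40 in the upper row, and the 4 MRL arrays of that day spread from 8.23 to 10.97.

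The second Cdkn1a probe set gave larger changes from day 0 in the same direction. It changed by 6.86 ± 0.64 in C57 infarct tissue by day 1 (117-fold, adjusted p = 4.27e-07) and by 4.14 in MRL (17.6-fold, 6.56e-05). Its day 0 levels in infarct tissue, 1.97 to 3.74 in C57 and 2.54, 2.57, 3.88 and 5.12 in MRL, lay below every array median in all C57 arrays and 3 of the 4 MRL arrays, so the size of neither fold is exact. On day 5 it stood at 6.90 ± 0.79 in C57 (SD, n = 4) and 6.56 ± 0.32 in MRL infarct tissue (SD, n = 4), still above its day 0 range in both strains. From day 1 to day 5 it changed by -2.54 in C57 infarct tissue (limma adjusted p = 0.00289). In MRL infarct tissue its change of -1.10 was not called (0.161), unlike that of the first probe set.

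Away from the infarct Cdkn1a also rose in C57. Noninfarct C57 tissue measured 6.67, 5.31 and 6.68 at day 0, 9.93, 8.96, 9.71 and 10.81 at day 1, and 7.17, 7.90, 8.82 and 8.37 at day 5. In noninfarct MRL tissue the values were 7.12, 7.12, 7.78 and 6.66 at day 0, 7.08, 8.27, 10.28 and 8.45 at day 1, and 7.85, 7.98, 8.34 and 7.98 at day 5. Every C57 array of day 1 lay above every C57 array of the other days, while the MRL day 1 arrays reached from within the day 0 range to above the day 5 range. The C57 change was 3.63 ± 0.55 by day 1 (12.4-fold, adjusted p = 0.000927) and 1.85 ± 0.55 by day 5 (3.6-fold, 0.0249). The day 5 call was lost without C57 day 0 noninfarct replicate 2 (1.39, 0.132) or without C57 day 5 noninfarct replicate 3 (1.59, 0.0819) or 4 (1.75, 0.0537). The MRL changes, 1.35 ± 0.51 by day 1 (adjusted p = 0.256) and 0.87 ± 0.51 by day 5 (0.214), did not pass. The C57 value dropped by 1.79 ± 0.51 from day 1 to day 5 (0.0172), a call lost without C57 day 1 noninfarct replicate 4 (-1.47, 0.0642). The second probe set was called in C57 on both days (5.88, 0.00191 and 3.28, 0.0258) and not in MRL (2.83, 0.165 and 2.37, 0.064).

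Ordered by mean, the Cdkn1a levels ran from C57 day 1 infarct (10.58 ± 0.40, SD, n = 4) through C57 day 1 noninfarct (9.85 ± 0.76), MRL day 1 infarct (9.61 ± 1.14), C57 day 5 infarct (8.72 ± 0.41) and MRL day 1 noninfarct (8.52 ± 1.32). Below these came MRL day 5 infarct (8.45 ± 0.23), C57 day 5 noninfarct (8.07 ± 0.71), MRL day 5 noninfarct (8.04 ± 0.21), MRL day 0 infarct (7.21 ± 0.51) and MRL day 0 noninfarct (7.17 ± 0.46). The lowest were C57 day 0 infarct (6.53 ± 0.43, n = 3) and C57 day 0 noninfarct (6.22 ± 0.79, n = 3). Of the 11 gaps between neighbours, 2 were larger than both groups' SDs: 0.83, between MRL day 5 noninfarct and MRL day 0 infarct, and 0.64, between MRL day 0 noninfarct and C57 day 0 infarct.

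By the probe sets that represent the genes, Gadd45g changed most of the 9 in infarct tissue on day 1. C57 infarct tissue measured 4.44, 6.11 and 5.21 at day 0, 10.25, 9.63, 10.40 and 10.78 at day 1, and 6.97, 7.76, 7.60 and 7.76 at day 5. MRL infarct tissue measured 6.54, 5.72, 5.70 and 5.98 at day 0, 8.69, 9.83, 11.49 and 9.92 at day 1, and 6.66, 6.66, 7.91 and 6.94 at day 5. The day 1 arrays of both strains lay above all arrays of the other days. The change by day 1 was 5.01 ± 0.49 in C57 (32.3-fold, adjusted p = 7.93e-07) and 4.00 ± 0.45 in MRL (16-fold, 4.86e-06). By day 5 the level had dropped by 2.75 ± 0.45 from day 1 in C57 (0.000118) and by 2.94 ± 0.45 in MRL (8.1e-05). It was still above day 0 in C57 (2.27 ± 0.49, 4.81-fold, 0.00115). The MRL difference of 1.06 ± 0.45 missed the threshold (0.0583) and passed it without MRL day 0 infarct replicate 1 (1.25, 0.0459).

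In C57 noninfarct tissue Gadd45g also rose, 7.72-fold by day 1 (2.95 ± 0.59, adjusted p = 0.00708) and 4.03-fold by day 5 (2.01 ± 0.59, 0.0229). Its levels there were 4.19, 5.67 and 5.38 at day 0, 6.77, 8.62, 7.79 and 8.95 at day 1, and 5.38, 7.73, 7.33 and 7.93 at day 5. The lowest day 5 array, replicate 1, lay within the day 0 range, and that library also had the lowest fibroblast (25100 against 45850 to 93460) and macrophage marker sums of its group. The day 1 call was lost without C57 day 0 noninfarct replicate 1 (2.50, 0.0609). The day 5 call was lost without C57 day 0 noninfarct replicate 1 (1.56, 0.105) or 3 (2.16, 0.0518), or without C57 day 5 noninfarct replicate 2 (1.80, 0.0508), 3 (1.93, 0.0583) or 4 (1.73, 0.0614). MRL noninfarct tissue measured 6.64, 6.70, 5.66 and 6.26 at day 0, 6.75, 7.91, 9.04 and 7.20 at day 1, and 6.13, 6.63, 6.64 and 6.37 at day 5. Its day 1 arrays were all above its day 0 arrays, but the change of 1.41 ± 0.55 was not called (adjusted p = 0.267), nor was that of day 5 (0.13, 0.879).

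Gadd45b rose in infarct tissue of both strains and stayed up until day 5. Its C57 values were 6.04, 5.60 and 5.93 at day 0, 9.02, 7.67, 7.35 and 7.76 at day 1, and 6.83, 7.97, 7.72 and 8.10 at day 5. Its MRL values were 5.80, 6.29, 5.52 and 6.19 at day 0, 6.63, 6.83, 10.40 and 7.36 at day 1, and 7.69, 7.80, 6.12 and 8.40 at day 5. The day 0 arrays lay below all later ones with 1 exception, the MRL day 5 infarct library with a high cardiomyocyte sum, at 6.12. The rise by day 1 was 4.27-fold in C57 (2.09 ± 0.66, adjusted p = 0.0352) and 3.61-fold in MRL (1.85 ± 0.61, 0.036). By day 5 it was 3.47-fold (1.79 ± 0.66, 0.0342) and 2.93-fold (1.55 ± 0.61, 0.0429), the latter 2.01 with an adjusted p of 0.00899 without the 2 libraries at odds with their labels. From day 1 to day 5 the C57 difference was -0.30 (0.728).

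These Gadd45b calls were close to the threshold. On day 1 the C57 call was lost in 5 of 7 omissions of 1 array (each day 0 replicate, day 1 replicates 1 and 4; 1.74 to 2.18, adjusted p 0.0576 to 0.119). The MRL call was lost in 6 of 8 (each day 0 replicate, day 1 replicates 3 and 4; 0.99 to 2.00, 0.0521 to 0.114). On day 5 the calls were lost in 6 of 7 omissions in C57 (all but day 5 replicate 1; 1.64 to 1.88, 0.0617 to 0.0972) and 7 of 8 in MRL (all but day 5 replicate 3; 1.25 to 1.67, 0.0538 to 0.135). The second Gadd45b probe set gave larger values on day 1, 3.21 in C57 (0.00712) and 2.78 in MRL (0.00903). Its day 0 levels in infarct tissue were 3.58 to 4.01 in C57 and 4.00, 3.44, 3.94 and 5.05 in MRL. All but the 5.05 lay below every array median, so the size of these changes is not exact. Noninfarct tissue showed no called change of Gadd45b (C57 day 1 0.31, 0.815). Its C57 day 5 values there ran from 5.17 to 8.23, the highest being the library with a high macrophage sum, and leaving out C57 day 5 noninfarct replicate 1 gave a called change of 1.21 (0.0254).

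Gadd45a, the member of the family most closely tied to p53, showed no called change by day 1. C57 infarct tissue measured 5.64, 6.02 and 5.30 at day 0, 7.28, 6.32, 5.60 and 7.49 at day 1, and 5.06, 5.20, 5.28 and 4.91 at day 5. MRL infarct tissue measured 5.84, 5.58, 6.24 and 5.81 at day 0, 5.15, 5.20, 8.84 and 5.60 at day 1, and 5.20, 4.78, 4.91 and 5.13 at day 5. Of the MRL day 1 arrays, replicate 3 lay above every other array of the gene and the others lay near or below day 0. The day 1 changes were 1.02 ± 0.60 in C57 (adjusted p = 0.267) and 0.33 ± 0.56 in MRL (0.706). The level fell from day 1 to day 5 in C57 (by 1.56, 0.0354), a call lost in 6 of 8 omissions of 1 array (day 1 replicates 1 and 4 and each day 5 replicate; -1.62 to -1.29, 0.0516 to 0.104). In MRL noninfarct tissue Gadd45a fell by 0.90 ± 0.31 by day 5 (0.0406). That call was lost in 7 of 8 omissions (all but day 0 replicate 1; -0.96 to -0.83, 0.0537 to 0.107).

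**Figure D3:**
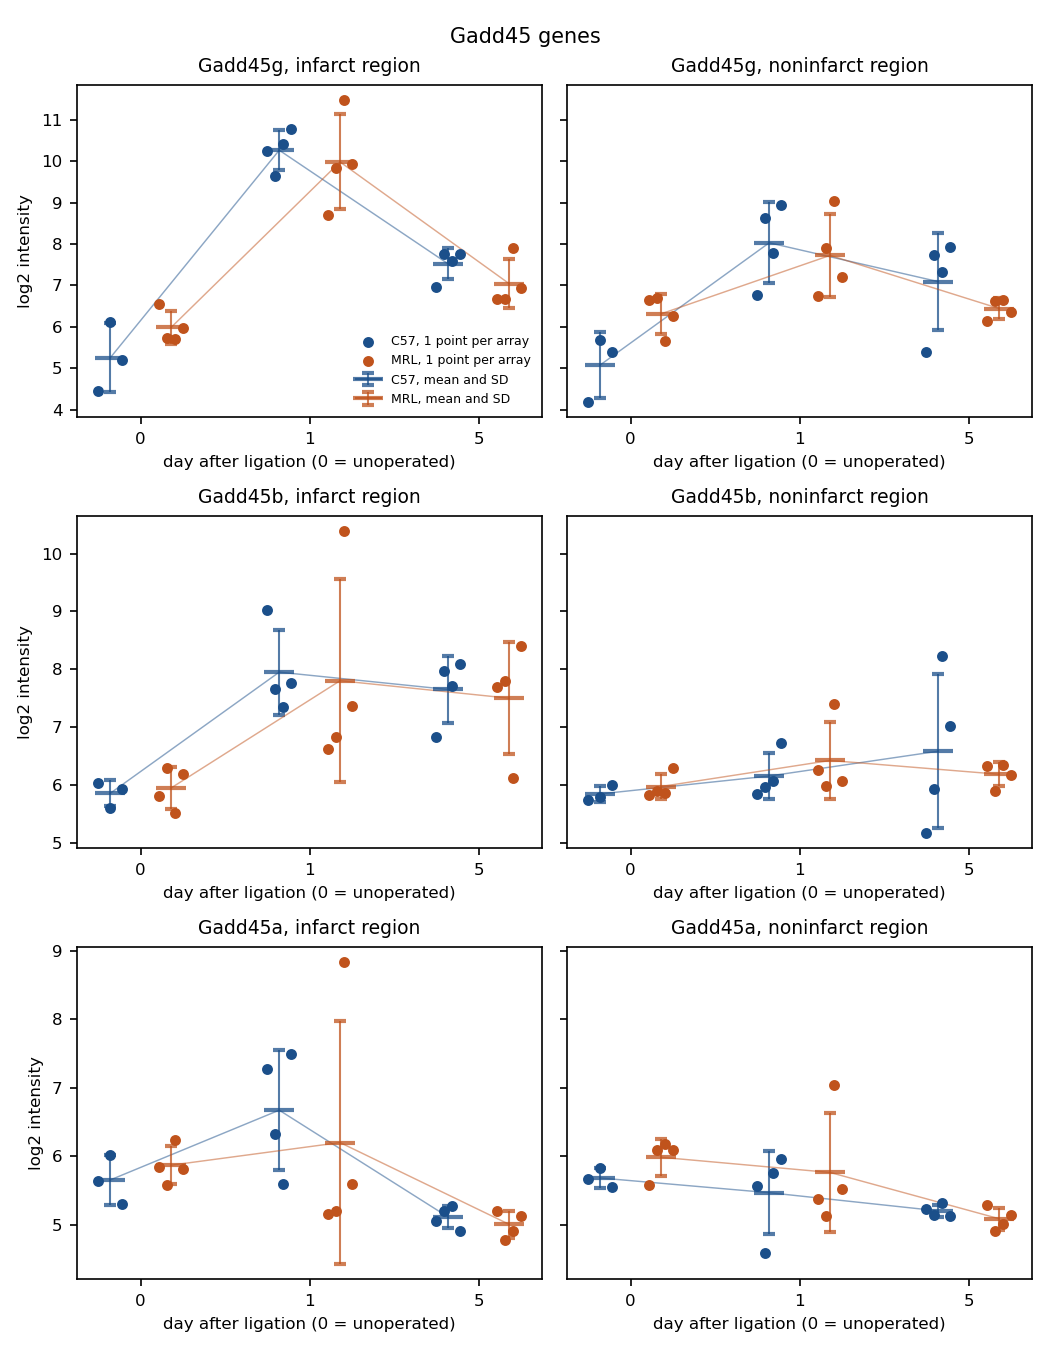
Log2 intensity of Gadd45g, Gadd45b and Gadd45a (rows, y axis) by day after ligation (x axis) in infarct (left) and noninfarct tissue (right). Each point is 1 array of C57 (blue) or MRL (orange), with group mean and SD. Gadd45g peaks on day 1, and the MRL day 1 infarct array at 11.49, 10.40 and 8.84 in the 3 rows is the same library.

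Among the other kinase inhibitors Cdkn2c moved later than Cdkn1a. In C57 infarct tissue it measured 5.56, 5.52 and 5.49 at day 0, 4.91, 4.94, 4.67 and 4.68 at day 1, and 6.03, 7.34, 7.16 and 7.33 at day 5. In MRL infarct tissue it measured 5.50, 4.92, 5.38 and 5.18 at day 0, 5.28, 4.63, 4.66 and 4.69 at day 1, and 7.68, 6.79, 7.18 and 7.56 at day 5. All day 5 arrays lay above all earlier ones. Cdkn2c rose 2.72-fold by day 5 in C57 (1.45 ± 0.27, adjusted p = 0.000434) and 4.16-fold in MRL (2.06 ± 0.25, 3.67e-06). The day 1 differences, -0.72 ± 0.27 (0.0771) and -0.43 (0.232), were not called, although the C57 groups did not overlap. From day 1 to day 5 Cdkn2c rose by 2.17 ± 0.25 in C57 (2.38e-06) and by 2.48 ± 0.25 in MRL (6.09e-07), where 18.5% and 16.3% of probe sets rose.

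Noninfarct tissue had the same late course in MRL, with 5.47, 5.32, 5.27 and 4.95 at day 0, 5.51, 5.40, 4.75 and 4.95 at day 1, and 6.65, 7.44, 6.89 and 6.64 at day 5. That rise of Cdkn2c was 3.15-fold (1.65 ± 0.30, adjusted p = 0.000586). C57 noninfarct tissue had 6.01, 5.73 and 5.63 at day 0, 5.88, 5.07, 6.20 and 5.89 at day 1, and 5.33, 6.99, 6.64 and 6.82 at day 5. Its day 5 change of 0.66 was not called (0.149), and was 1.03 (0.00467) without replicate 1 of day 5, the library with the lowest fibroblast and macrophage sums. In infarct tissue, too, the lowest C57 day 5 value of Cdkn2c, 6.03, came from the library with the lowest macrophage sum (11600 against 21340 to 24340) and the highest cardiomyocyte sum (170600 against 87150 to 95830). Within their labelled groups, the 2 libraries at odds with their labels did not follow that order. As those labels are in doubt, no conclusion is drawn from their ranks. MRL day 5 infarct replicate 3, with the lowest macrophage sum of its group, had 7.18 for Cdkn2c against 6.79 in replicate 2, and C57 day 5 noninfarct replicate 3, with the highest, had 6.64 against 6.99 in replicate 2. Over the groups the fibroblast sum of infarct tissue went from 6731 to 10630 at day 0 to 44930 to 99660 at day 5, and the macrophage sum from 776.3 to 1308 up to 4303 to 26510. The part of these cells in the Cdkn2c change was not tested.

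Cdkn1c, a growth inhibitor from an imprinted locus, was dim, lying above the array median in 17 of 46 arrays, so that the size of its changes is not exact. No day 5 array was among these in either region, and in infarct tissue they were day 0 arrays and MRL day 1 replicate 3. The gene thus passed the filter through groups where it was high, which favours a fall from day 0. Its calls for a fall are to be read with that limit. MRL infarct tissue gave 5.44, 4.86, 4.69 and 5.15 at day 0, 4.06, 3.86, 5.28 and 2.94 at day 1, and 3.98, 4.06, 3.69 and 3.46 at day 5. It fell by 1.23 ± 0.34 by day 5 (2.35-fold, adjusted p = 0.00587), with every day 5 array below every day 0 array. The day 1 fall of 1.00 ± 0.34 (0.0423) came with overlapping groups, and its call was lost in 6 of 8 omissions (all but day 0 replicate 3 and day 1 replicate 3; -1.06 to -0.63, 0.0586 to 0.169). In C57 infarct tissue the values were 4.28, 4.73 and 5.34 at day 0, 4.23, 4.12, 3.33 and 4.09 at day 1, and 4.00, 3.99, 4.12 and 3.85 at day 5. The C57 changes of -0.84 (0.127) and -0.80 (0.0881) were not called. In noninfarct tissue Cdkn1c fell by day 5 in C57 (by 0.57 ± 0.18, 0.0301) and in MRL (by 0.65 ± 0.17, 0.00818). The C57 noninfarct call was lost in 6 of 7 omissions (all but day 5 replicate 1; -0.58 to -0.54, 0.0557 to 0.0855).

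Cdkn1b, which holds resting cells out of the cycle, was called in none of the 28 comparisons. Its group means ran from 5.47 to 6.01 and its single arrays from 5.00 to 6.46. Its infarct tissue changes by day 1 were -0.23 in C57 (adjusted p = 0.642) and -0.28 in MRL (0.487). Those by day 5 were 0.25 (0.513) and -0.03 (0.936).

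The p53 targets Mdm2 and Ccng1 were not called higher on any day in either region. Mdm2 in C57 infarct tissue measured 7.95, 8.40 and 8.42 at day 0, 8.35, 8.35, 8.10 and 8.13 at day 1, and 7.71, 6.64, 7.45 and 7.88 at day 5. In MRL infarct tissue it was 8.48, 8.25, 8.37 and 8.50 at day 0, 7.76, 8.20, 9.55 and 8.19 at day 1, and 7.90, 7.49, 7.99 and 7.15 at day 5. In both strains the day 5 arrays lay below all day 0 arrays. The day 1 differences were -0.02 in C57 (adjusted p = 0.977) and 0.03 in MRL (0.963). By day 5 this probe set fell by 0.83 ± 0.33 in C57 (0.0462) and by 0.77 ± 0.30 in MRL (0.0437). The second Mdm2 probe set did not pass at that time (-0.20, 0.59 and -0.29, 0.387). The Gapdh 3' minus 5' difference in log2, a sign of RNA length, went from -0.22 to -0.14 at day 0 to -0.08 to 0.73 at day 5 in C57 infarct tissue and from -0.28 to -0.18 up to -0.13 to -0.00 in MRL. C57 day 5 infarct replicate 2, with the highest value of all arrays, was the lowest of its group in Mdm2 (6.64) and in Ccng1 (9.40). Without that library the C57 change by day 5 was -0.57 for Mdm2 (adjusted p = 0.172) and -1.17 for Ccng1 (0.0192). The part of RNA quality in the other arrays was not tested.

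Single arrays decided the Mdm2 calls. The C57 one was lost in 4 of 7 omissions (day 0 replicates 2 and 3, day 5 replicates 2 and 3; -0.84 to -0.57, adjusted p 0.073 to 0.172). The MRL one was lost in 6 of 8 (each day 0 replicate, day 5 replicates 2 and 4; -0.82 to -0.61, 0.0577 to 0.143). In noninfarct MRL tissue Mdm2 fell by 0.63 ± 0.20 by day 5 (0.0291), lost in 4 of 8 omissions (day 0 replicates 1 and 4, day 5 replicates 1 and 2; -0.64 to -0.49, 0.0547 to 0.12).

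Ccng1, cyclin G1, a p53 target found in most tissues, fell in infarct tissue of both strains by day 5. C57 arrays measured 11.71, 11.25 and 11.48 at day 0, 11.02, 11.00, 9.90 and 10.29 at day 1, and 10.73, 9.40, 10.10 and 10.11 at day 5. MRL arrays measured 11.65, 11.40, 12.08 and 11.98 at day 0, 11.09, 10.42, 11.40 and 10.71 at day 1, and 9.72, 9.58, 11.08 and 10.13 at day 5. The fall by day 5 was 2.63-fold in C57 (-1.39 ± 0.36, adjusted p = 0.00412) and 3.14-fold in MRL (-1.65 ± 0.33, 0.000505). Both other Ccng1 probe sets fell as well (-2.01, 0.00523 and -2.29, 0.00625 in C57; -2.19, 0.00126 and -2.30, 0.00291 in MRL). The day 1 differences of the representing probe set, -0.92 ± 0.36 (0.0818) and -0.87 (0.0639), were not called, except without MRL day 1 infarct replicate 3 in MRL (-1.04, 0.0406) or, through the smaller spread, without the 2 libraries at odds with their labels (-0.92, 0.0396 and -0.87, 0.0298). By the other probe sets the MRL means went from 11.62 to 10.33 and from 11.34 to 9.53 by day 1, with no overlap of arrays. The C57 means went from 11.23 to 9.83 and from 10.87 to 9.56. As no adjusted p is given here for these probe sets on day 1, the missing day 1 call describes the representing probe set alone. Cardiomyocyte marker sums of infarct tissue went from 203900 to 210600 at day 0 to 87150 to 170600 at day 5 in C57 and from 189800 to 207500 down to 59260 to 184400 in MRL. The highest day 5 values of Ccng1, 10.73 in C57 and 11.08 in MRL, came from the libraries with the highest cardiomyocyte sums of their groups. The MRL one is 1 of the 2 libraries at odds with their labels. The part of these cells in the Ccng1 change was not tested. In noninfarct tissue the day 5 changes of the representing probe set, -0.53 in C57 (0.0739) and -0.42 in MRL (0.118), did not pass, and the C57 change passed without C57 day 5 noninfarct replicate 1 (-0.70, 0.0117). The means of the other probe sets fell further there, with every day 5 array below every day 0 array in both strains. No adjusted p is given here for them in noninfarct tissue, so the lack of a call describes the representing probe set alone. The other probe sets went as follows. Their means moved from 11.44 to 10.43 and from 11.26 to 10.10 in C57, and from 11.68 to 10.93 and from 11.55 to 10.77 in MRL.

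**Figure D4:**
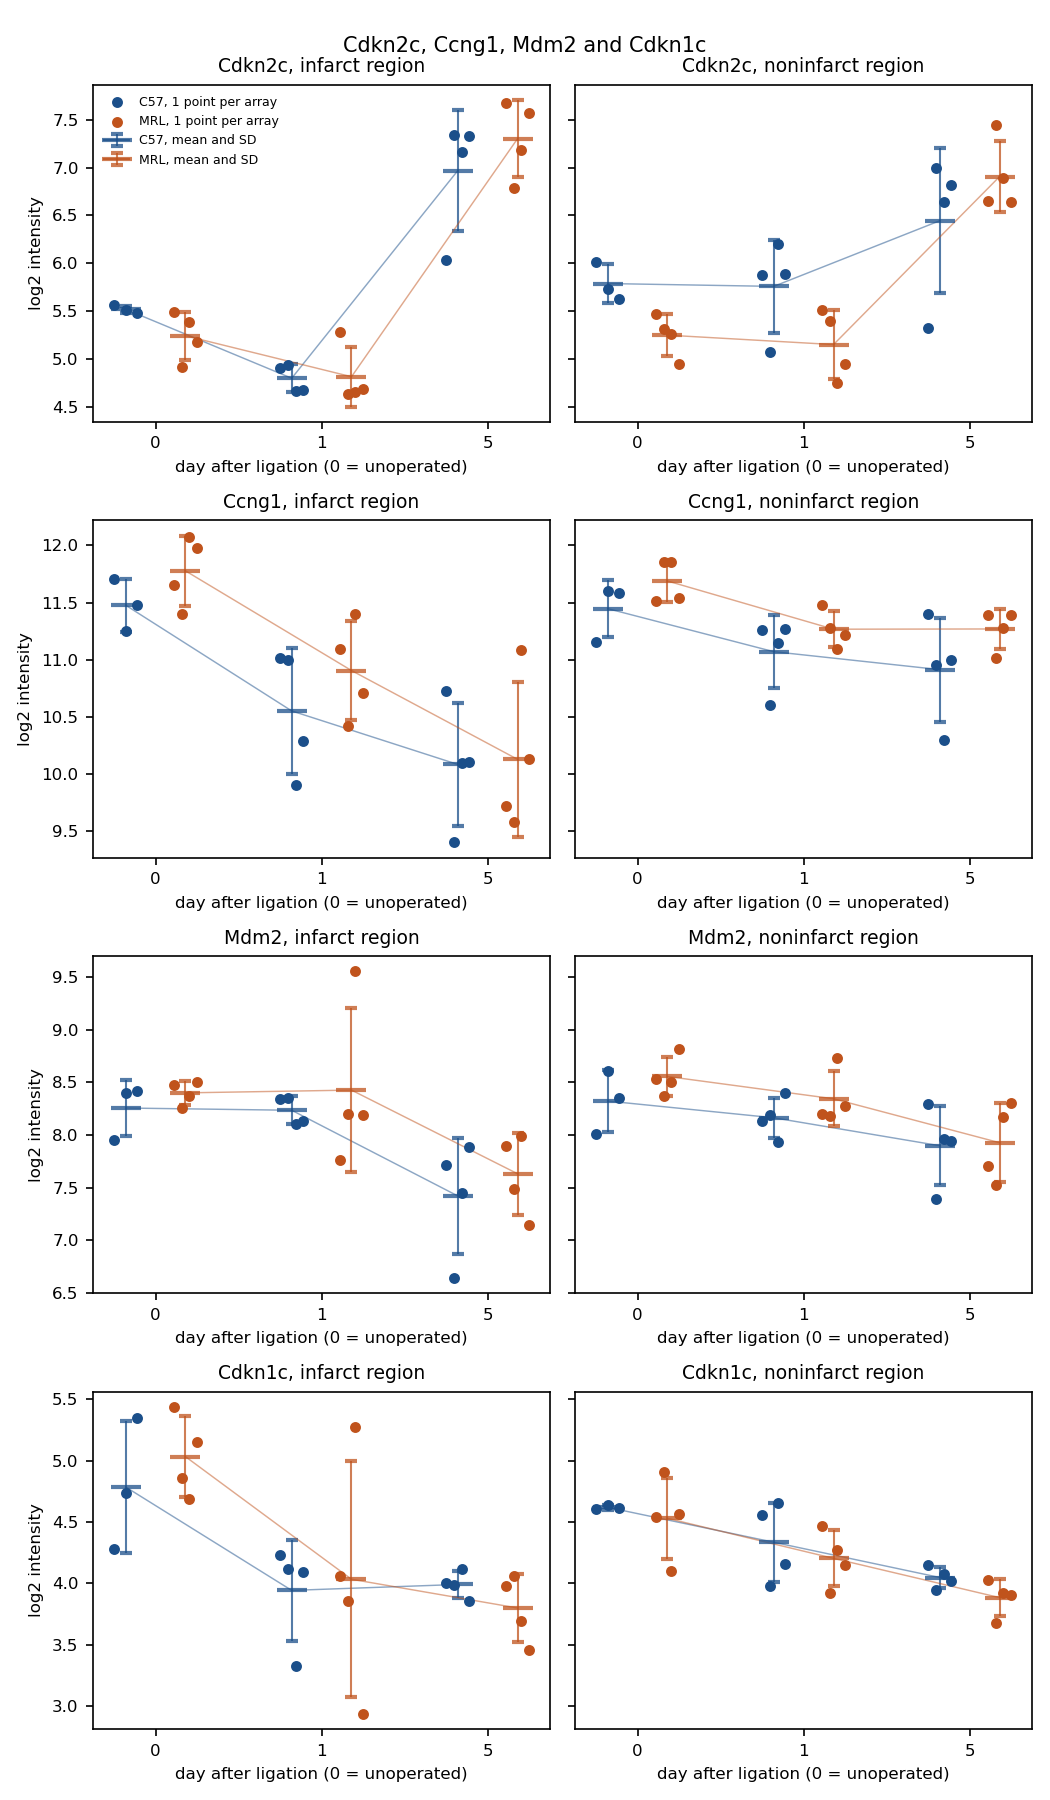
Log2 intensity of Cdkn2c, Ccng1, Mdm2 and Cdkn1c (rows, y axis) by day after ligation (x axis) in infarct (left) and noninfarct tissue (right). Each point is 1 array of C57 (blue) or MRL (orange), with group mean and SD. Cdkn2c stands highest on day 5, and Ccng1 in infarct tissue is lower on day 5 than on day 0.

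In noninfarct tissue 2 genes rose by day 1 in C57, Cdkn1a and Gadd45g, and none fell, where 2.71% of probe sets rose and 1.27% fell. None was called in MRL, where 0.98% of probe sets were called, and 3 of the 9 had an unadjusted limma p under 0.05 (12.5% of probe sets). By day 5 the counts were 2 higher and 1 lower in C57 (11.6% and 9.45% of probe sets) and 1 higher and 3 lower in MRL (16% and 8.17%). Without the 2 libraries at odds with their labels no gene was called in C57 noninfarct tissue on day 5, where 10.1% of probe sets were. Cdkn1a gave 1.59 (adjusted p = 0.0819), Gadd45g 1.93 (0.0583) and Cdkn1c -0.58 (0.0583). From day 1 to day 5 Cdkn1a alone fell in C57 and none rose (10.5% of probe sets fell and 11.9% rose). In MRL Cdkn2c alone rose, by 1.75 ± 0.30 (adjusted p = 0.000619), and none fell (9.48% of probe sets rose and 2.5% fell).

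Between day 1 and day 5 in infarct tissue, 1 gene rose and 4 fell in C57, where 18.5% of probe sets rose and 15.7% fell. In MRL 1 was higher and 2 were lower (16.3% and 13.8% of probe sets). Beside Cdkn1a, Gadd45g, Gadd45a and Cdkn2c, the C57 calls held Mdm2 (-0.81, adjusted p = 0.0441), whose MRL value of -0.79 missed (0.0532). The second Mdm2 probe set did the reverse, with a call in MRL (-0.74, 0.0397) and none in C57 (-0.31, 0.379). The C57 Mdm2 call was lost in 6 of 8 omissions (each day 1 replicate, day 5 replicates 2 and 3; -0.86 to -0.55, 0.0512 to 0.181). By the first probe set the MRL Mdm2 difference was called without MRL day 1 infarct replicate 1 (-1.02, 0.019) or MRL day 5 infarct replicate 3 (-0.91, 0.0301). Without the latter library Ccng1 was called too (-1.09, 0.00827).

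The second question was whether infarct and noninfarct tissue of the same strain and day differed. At day 0 no gene did, with 0% of probe sets called in C57 and 0.0304% in MRL, and an unadjusted limma p under 0.05 for 0 of the 9 in either strain (1.51% and 0.617% of probe sets). On day 1 Gadd45g was higher in infarct tissue by 2.24 ± 0.52 in C57 (4.71-fold, adjusted p = 0.00724) and by 2.26 in MRL (0.0076). In C57 Gadd45b was higher too (1.79 ± 0.55, 0.0392) and Cdkn2c lower (-0.96 ± 0.28, 0.0328), where 3.93% of probe sets were higher and 3.38% lower. In MRL no other gene was called, beside 4.44% of probe sets higher and 4.84% lower. Cdkn1a differed less between the regions, by 0.72 in C57 (0.34) and 1.09 ± 0.47 in MRL (0.134). MRL day 1 arrays of the same number deviated together across regions, and with the replicate number as a block the MRL differences were called for Cdkn1a (1.09 ± 0.24, 0.00554) and Gadd45b (1.38 ± 0.42, 0.0306). The MRL difference of Cdkn1a was also called without MRL day 1 infarct replicate 1 (1.55, 0.0269) or MRL day 1 noninfarct replicate 3 (1.68, 0.0229), and that of Gadd45b without the former (1.77, 0.0342) or without the 2 libraries at odds with their labels (1.38, 0.0444).

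The C57 region calls of day 1 rested on few arrays. That of Gadd45g was lost without C57 day 1 noninfarct replicate 1 (1.81, adjusted p = 0.055). That of Gadd45b was lost in 6 of 8 omissions (all but infarct replicate 2 and noninfarct replicate 4; 1.44 to 2.00, 0.0643 to 0.111), and that of Cdkn2c in 5 of 8 (infarct replicates 3 and 4, noninfarct replicates 1, 3 and 4; -0.92 to -0.81, 0.0682 to 0.125). On day 5 no gene was called in C57 (8.53% of probe sets called, with an unadjusted limma p under 0.05 for 1 of the 9 and 28.7% of probe sets) and Ccng1 alone in MRL, lower in infarct tissue by 1.14 (0.0088, with 9.54% of probe sets lower and 4.48% higher). The MRL call was lost without MRL day 5 infarct replicate 1 (-1.0, 0.051) or 2 (-0.96, 0.0678). Without the 2 libraries at odds with their labels, Ccng1 was lower in infarct tissue by 1.03 in C57 (0.00208) and by 1.46 in MRL (2.69e-05), and Gadd45b higher by 1.61 (0.0154) and 1.77 (0.00697). The share of all probe sets called rose at the same time, to 32.5% in C57 and 35.3% in MRL, so 2 of the 9 genes lay below it in both strains. In C57 the omission of day 5 infarct replicate 1 also gave calls for Ccng1 (-1.04, 0.00923) and Cdkn2c (0.83, 0.0265).

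The third question was whether the strains differed before infarction or in their response. No gene of the group was called in any of the 6 strain comparisons or the 4 comparisons of strain by infarction (the change in MRL minus that in C57). In infarct tissue the share of probe sets called between strains was 1.07% at day 0, 0.997% at day 1 and 0.686% at day 5, with an unadjusted limma p under 0.05 for 0, 1 and 0 of the 9 (6.47%, 8.92% and 5.54% of probe sets). In noninfarct tissue the shares called were 1.8%, 2.77% and 1.25%, with 1 of the 9 under the unadjusted threshold on each day (8.64%, 13.7% and 9.8% of probe sets). For strain by infarction the shares called were 0.0468% on day 1 and 0.156% on day 5 in infarct tissue, with 1 and 0 of the 9 under the unadjusted threshold (3.72% and 3.45%). In noninfarct tissue 0.0081% were called on each day, with 1 and 2 of the 9 under it (3.35% and 1.84%). The 2 libraries at odds with their labels bear on these day 5 values, since their strain is in doubt too. On the third principal component of the tested probe sets, the other day 5 arrays lay at 19.4 to 25.4 in C57 and -15.9 to -11.8 in MRL. C57 day 5 noninfarct replicate 3 lay at -13.7 and MRL day 5 infarct replicate 3 at 21.2. Each thus fell within the range of the other strain. Without them the day 5 shares between strains rose to 2.42% in infarct and 3.83% in noninfarct tissue. Those for strain by infarction rose to 0.577% and 0.0813%, still with none of the 9 called in either kind of comparison.

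The Cdkn1a values of the strains differed in sign between day 0 and day 1, without a call. Its MRL minus C57 difference was 0.67 ± 0.43 at day 0 in infarct (adjusted p = 1) and 0.95 ± 0.55 in noninfarct tissue (0.769). On day 1 it was -0.97 ± 0.40 in infarct (adjusted p = 0.42) and -1.33 ± 0.51 in noninfarct tissue (0.211). By day 5 it was -0.27 (0.999) and -0.03 (0.991). The test of strain by infarction on day 1 gave -1.64 ± 0.59 in infarct and -2.28 ± 0.75 in noninfarct tissue, and on day 5 -0.94 ± 0.59 and -0.98 ± 0.75 (adjusted p = 1 for all 4). The second probe set differed by -1.77 on day 1 in infarct tissue (adjusted p = 0.227), with C57 arrays at 9.24 to 9.82 and MRL arrays at 6.18 to 9.22.

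MRL day 1 replicate 3 stood apart in both regions. In infarct tissue it was the highest of its group in Cdkn1a (10.97), Gadd45a (8.84), Gadd45b (10.40), Gadd45g (11.49), Mdm2 (9.55, and 9.36 by its other probe set) and Cdkn1c (5.28). For Ccng1 it was highest by the representing probe set (11.40). By the other Ccng1 probe sets replicate 1 was slightly higher (10.67 against 10.59, and 9.748 against 9.747). The same-numbered noninfarct library was highest in Cdkn1a (10.28), Gadd45a (7.04), Gadd45b (7.40), Gadd45g (9.04) and Mdm2 (8.73). Its Gapdh 3' minus 5' difference was 0.38 in infarct tissue against -0.26 to -0.01 in the others of the group, and -0.09 against -0.35 to -0.30 in noninfarct tissue. The infarct library also had the lowest macrophage sum of its group (1292 against 1907 to 3801). The part of RNA quality in these values was not tested.

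Without that infarct library the strain difference of Cdkn1a on day 1 was called, at -1.42 ± 0.35 (adjusted p = 0.0389), as was that of Gadd45a at -1.35 ± 0.32 (0.0348). Without its noninfarct counterpart Cdkn1a was called there at -1.92 ± 0.44 (0.0187). Strain by infarction for Cdkn1a stayed uncalled even so, at -2.10 ± 0.49 (0.129) in infarct and -2.87 ± 0.63 (0.115) in noninfarct tissue. At the other end, MRL day 1 replicate 1 was the lowest of its group for Cdkn1a in both regions (8.23 and 7.08). It had the lowest neutrophil sums (1542 against 3108 to 3572, and 433.7 against 618.3 to 988.7) and the highest fibroblast sums (14050 against 6598 to 8798, and 15080 against 8717 to 11000).

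Neutrophil markers moved with strain on day 1 as well. The summed intensity of the 6 measured neutrophil markers was 4438 to 6434 in C57 and 1542 to 3572 in MRL infarct tissue, and 1439 to 2526 and 433.7 to 988.7 in noninfarct tissue, so that the strains did not overlap in either region. At day 0 all 6 neutrophil markers were below the array median and summed to 50.81 to 63.67. By day 5 the order of the strains had turned in infarct tissue, with 76.23 to 141.4 in C57 and 148.7 to 222 in MRL, and the noninfarct sums were 58.61 to 138 and 61.13 to 82.58. The macrophage sums of the strains overlapped on day 1, at 1092 to 4310 in C57 and 1292 to 3801 in MRL infarct tissue and at 1088 to 1452 and 911.4 to 1731 in noninfarct tissue. The part of neutrophils in the Cdkn1a values of day 1 was not tested.

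For Gadd45g the test of strain by infarction gave -1.02 ± 0.66 on day 1 and -1.21 ± 0.66 on day 5 in infarct tissue, and -1.54 ± 0.80 and -1.88 ± 0.80 in noninfarct tissue (limma adjusted p = 1 for all 4). On day 1 these were smaller against their error than the values of Cdkn1a, and on day 5 they were larger. For Cdkn2c in noninfarct tissue on day 5 it gave 1.00 ± 0.44 (limma adjusted p = 1).

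Other genes of these pathways came from lists of known members and regulators. Of 21 further p53 targets tested, 4 rose and none fell in C57 infarct tissue on day 1, with a list median of 0.06 beside 0.01 over all probe sets, of which 9.39% rose and 6.16% fell. In MRL 4 rose and 1 fell (median -0.05), beside 10.4% and 11.1% of probe sets. The risers were led by Ddit4 in C57, a stress-induced inhibitor of mTOR signalling (1.92, adjusted p = 0.0318), by Ier5 (1.63, 0.0124 in C57 and 1.78, 0.00352 in MRL) and by the kinase Plk2 (1.37, 0.0161 and 2.09, 0.000309). Sesn1, a p53 target that restrains mTOR, fell in MRL (-1.47, 0.0337). By day 5 the C57 count was 6 higher and 2 lower (median 0.24) and the MRL count 4 higher and 2 lower (median -0.17). The shares of all probe sets were 23.4% higher and 19.3% lower in C57 and 23.6% and 23.4% in MRL. Phlda3, an inhibitor of Akt, rose by 2.37 in C57 (8.71e-07) and 2.73 in MRL (3.49e-08), and Apaf1, the core of the apoptosome, by 2.05 (0.000245) and 1.96 (0.000129). Rrm2b, which supplies nucleotides for DNA repair, fell in both (-1.35, 0.00981 and -1.28, 0.00715), as Mdm2 and Ccng1 did. In noninfarct tissue none of the 21 was called on day 1 in either strain, where 3.99% of probe sets were called in C57 and 0.98% in MRL. By day 5, 3 rose there in C57 and 5 in MRL, where 11.6% and 16% of probe sets rose.

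Among 8 tested p53 relatives, modifiers and kinases, the deubiquitinase Usp7 rose on day 1 in both strains (0.75, adjusted p = 0.0101 and 0.61, 0.0178) and the coactivator Crebbp fell (-1.02, 0.00263 and -1.20, 0.000324). Of 2 other tested kinase inhibitors only Cdkn2b was called, rising by 0.68 in MRL infarct tissue by day 5 (0.0204), where 23.6% of probe sets rose. Of 10 partners of the Gadd45 proteins in the p38 and JNK pathways, 3 were higher on day 1 in infarct tissue of C57, and in MRL 2 were higher and 2 lower (9.39% of probe sets higher in C57, 10.4% higher and 11.1% lower in MRL). The stress transcription factor Atf3 rose by 3.37 (0.00105) and 2.64 (0.00353), and Map2k3, a kinase that activates p38, by 1.48 (0.000241) and 1.56 (5.71e-05). By day 5 none was higher, and 3 in C57 and 4 in MRL were lower, beside 19.3% and 23.4% of probe sets. They included the phosphatase Dusp1 (-2.07, 0.00248 and -1.82, 0.0028) and Map3k4, the kinase that Gadd45 proteins activate (-1.45, 0.0206 and -2.05, 0.000992).

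Cyclins, their kinases and pocket proteins are the targets of the inhibitors. Of 16 tested, none rose on day 1 in infarct tissue, 2 fell in C57 and 1 in MRL, among them the pocket protein Rbl2 in both (-1.81, adjusted p = 0.00733 and -2.08, 0.00122). By day 5 the count was 7 higher and 1 lower in C57 (list median 0.50) and 9 higher with none lower in MRL (0.76), where 23.4% and 23.6% of all probe sets were higher and their median changes were -0.00 and -0.05. The mitotic kinase Cdk1 rose by 3.92 (1.07e-05) and 4.46 (7.21e-07), cyclin A2 (Ccna2) by 4.24 (1.26e-06) and 4.53 (1.45e-07), and the division marker Mki67 by 4.27 (3.02e-06) and 4.49 (4.6e-07). Cdkn2c was likewise called higher on day 5 and not on day 1, whereas Cdkn1a and Gadd45g were highest on day 1. In noninfarct tissue 8 of 14 rose in C57 and 9 of 14 in MRL by day 5, beside 11.6% and 16% of probe sets.

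Of 16 regulators of Cdkn1a other than p53, 7 were higher and 1 lower on day 1 in C57 (list median 0.59), and 6 and 1 in MRL (0.84). Of all probe sets 9.39% were higher and 6.16% lower in C57, and 10.4% and 11.1% in MRL. Myc, which represses Cdkn1a transcription, rose by 3.97 (adjusted p = 0.000147) and 4.44 (1.88e-05), and Hif1a, the hypoxia factor, by 2.02 (3.13e-06) and 1.53 (3e-05). Foxo3, an activator of Cdkn1a, fell (-0.88, 0.0168 and -1.45, 0.000155). By day 5 Cebpa, whose product stabilises p21 in liver and is abundant in myeloid cells, rose by 5.18 (2.33e-05) and 4.32 (5.24e-05), with 7 risers and 1 faller in C57 and 6 and 3 in MRL (23.4% and 19.3% of probe sets in C57, 23.6% and 23.4% in MRL). In noninfarct tissue on day 1 the called regulators were Hif1a (1.14, 0.00493) and Stat3 (0.96, 0.00147) in C57 and Stat3 alone in MRL (0.95, 0.00182). Beside them, 3.99% of all probe sets were called in C57 and 0.98% in MRL.

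Likeness of pattern was measured as Pearson's r over the 12 group means, among 7651 genes, as a description. The genes most like Cdkn1a were Utp3 (0.967), Gclm (0.963), Fads3 (0.959), Anxa7 (0.959) and Angptl4 (0.951). For Gadd45g they were Txnrd1 (0.973), Nifk (0.971), Ccl2 (0.970), Ppp2r2a (0.966) and Ctla2a (0.963). For Cdkn2c they were Svep1 (0.978), Selenoh (0.977), Wls (0.970), Rrm1 (0.967) and Mfap4 (0.965), and for Ccng1 Pla2g5 (0.991), Ppif (0.990), Kcnip2 (0.990), Eno3 (0.987) and Mrpl28 (0.986). Gadd45b was most like Cd300lf (0.984), Slc66a2 (0.981), Rps25 (0.972), Taldo1 (0.970) and Pgs1 (0.967). Within the group Cdkn1a and Gadd45g were the most alike pair (0.941), and Cdkn2c ran opposite to Gadd45a (-0.924) and Mdm2 (-0.885). These values share the 12 groups and their cell makeup.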

How the data were processed

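RNA of 46 left ventricle samples was hybridized to Affymetrix MOE430A arrays. The values are intensities per probe set on a linear scale, deposited by the authors after GCRMA (version not given in the sources used here), per the submitters' processing notes. Background correction in GCRMA can enlarge changes of dim probe sets. Here log2 was taken with no offset (smallest deposited intensity 1.03). Of 22690 probe sets, 64 controls were left out, 20380 had 1 gene symbol, 691 several and 1555 none. A probe set was tested if above its array's median in at least 3 arrays of the fit, which left 12834 in infarct tissue, 12344 in noninfarct tissue and 13138 in both. A gene is represented by its brightest tested probe set.

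Groups were compared with limma 3.58.1 in R 4.3.3 (lmFit, eBayes, two-sided, Benjamini-Hochberg over all tested probe sets), on the 23 arrays of a region, or on all 46 arrays between regions. In all, 28 comparisons were made, and the procedure was tested on simulated data. The members and gene lists were chosen with earlier results of these data known. All members are named. Of each list up to 3 called genes per direction with the largest change are named, and of genes alike in pattern the 5 with the highest r, leaving out uncharacterised names. Same-numbered infarct and noninfarct arrays deviated together (r over 0.1 in every pair) only in C57 day 0 (0.23 to 0.43) and MRL day 1 (0.34 to 0.56). The labels do not say which arrays share a heart. Alternatives were no filter, an offset of 32, quantile normalization, centring, 1 fit of all arrays, the mean of a gene's probe sets, the replicate number as a block and leaving out each array. Leaving out the 2 libraries at odds with their labels was added after seeing the data. The number of arrays limits the precision. Promoter windows are from RefSeq, build GRCm38.p6.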

Additional observations from a re-analysis of the deposited data

Results flagged for a closer look

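In 7 of 90 sets of values, each 1 gene in 1 group of 4 arrays, a single array lay far from the other 3 by Dixon's criterion, which chance meets in about 1 of 20. Cdkn1a was high in C57 day 5 infarct replicate 4 (log2 intensity 9.33 against 8.45 to 8.56). Cdkn1c was low in C57 day 1 infarct replicate 3 (3.33 against 4.09 to 4.23), which also had the highest macrophage sum of its group (4310). Cdkn2c was low in C57 day 5 infarct replicate 1 (6.03 against 7.16 to 7.34) and high in MRL day 1 infarct replicate 1 (5.28 against 4.63 to 4.69). Gadd45a was high in MRL day 1 infarct replicate 3 (8.84 against 5.15 to 5.60) and low in MRL day 0 noninfarct replicate 1 (5.59 against 6.08 to 6.18). Gadd45b was high in MRL day 0 noninfarct replicate 4 (6.30 against 5.83 to 5.90).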

How the results depend on the processing

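No change of the 9 genes turned its sign with a call under any alternative tried. Over 252 gene results, omitting 1 array left 2077 of 2196 values on the same side of the threshold, 99 lost a call and 20 gained one. No filter and an offset of 32 lost 12 calls each, and quantile normalization gained 3. The count of genes called in infarct tissue by day 1 was 5 in C57 with all 46 arrays in 1 fit, and 2 in MRL with no filter, with an offset of 32 or with the replicate block. Between day 1 and day 5 in infarct tissue it was 3 in C57 with the offset, and in MRL 6 with all 46 arrays in 1 fit and 5 without the 2 libraries at odds with their labels. In noninfarct tissue by day 5 it was 1 with no filter and 0 without those libraries in C57, and 1 in MRL with all 46 arrays in 1 fit. Between regions on day 1 it was 1 in C57 with no filter or the offset, and in MRL 3 with the replicate block and 2 with the mean of probe sets or without those libraries. Between regions on day 5 it was 1 in C57 with quantile normalization, the block or the mean and 2 without those libraries, and in MRL 2 with the block or without those libraries.

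Omitting 1 array gave counts of 2 to 3 in C57 and 2 to 4 in MRL for day 1 in infarct tissue, 4 to 6 and 3 to 6 for day 5, and 3 to 4 and 2 to 5 between those days. In noninfarct tissue they were 1 to 2 (C57 day 1), 0 to 6 (C57 day 5), 2 to 3 (MRL day 5) and 0 to 2 (C57 between those days). Between strains on day 1 they were 0 to 2 in infarct and 0 to 1 in noninfarct tissue. Between regions they were 0 to 3 (C57 day 1), 0 to 2 (C57 day 5), 1 to 3 (MRL day 1) and 0 to 2 (MRL day 5). With the replicate block, Gadd45b in infarct tissue lost its calls on day 1 (adjusted p = 0.0703 in C57 and 0.0535 in MRL) and day 5 (0.0637 and 0.0612), as did Mdm2 in C57 on day 5 (0.0592) and Cdkn1c in MRL on day 1 (0.052), whereas Gadd45a gained one between regions in C57 on day 1 (0.0067) and Gadd45g one in MRL on day 5 (0.0499). Within a region the block ties arrays of different days and strains, and so of different mice. A call lost there is no sign of a pairing. Same-numbered C57 day 1 arrays of the 2 regions did not all deviate together (r of -0.46 to 0.15), so the Gadd45a call rests on doubtful pairs. Quantile normalization moved the median of all probe sets by -0.14 in C57 infarct and -0.11 in MRL noninfarct tissue by day 5, and the share of calls that were higher from 54.8% to 44.8% and from 66.3% to 48.5%. In MRL noninfarct tissue between day 1 and day 5 that share went from 79.1% to 64.5%.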
